A study of Rattus norvegicus with 12 samples.

Results

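Er:YAG laser ablation of bone was compared with removal of the periosteum alone on 8 of the 12 arrays of the study: 4 arrays of laser-ablated rat calvaria and 4 of control calvaria. The arrays were chosen by their labels. The remaining 4 arrays hold calvaria drilled with a bur and are used here where a laser result is set against them. All animals were 10 weeks old, and all bone was taken 24 h after surgery. The Er:YAG laser is a pulsed solid-state laser whose light is absorbed strongly by water, so that it removes mineralized tissue. It was drawn 3 times over a rectangle of 8 by 3 mm through a chisel contact tip at about 2 mm/s. The panel was set to 220 mJ per pulse at 20 Hz, which gave an output of 127 mJ per pulse, an energy density of 20.2 J/cm2 per pulse at the tip and a pulse duration of 200 µs. The bur made a defect of the same size. The label of the controls calls them non-treated, while the protocol states that their periosteum was removed, so control here means exposed bone without ablation and not intact bone. The labels do not say if each sample is a different animal, and the p-values therefore measure only the spread between these samples, which may be technical. The labels do not state strain, sex, or how much bone around the defect was taken.

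The calvaria is the vault of the skull, a pair of thin bone plates with marrow between them, covered by periosteum on the outside and lined by dura mater on the inside. Osteoblasts deposit its collagen matrix, osteocytes embedded in that matrix sense load and secrete regulators such as sclerostin, and osteoclasts resorb it. After injury, chemokines draw neutrophils and monocytes into the wound, and mesenchymal cells of the periosteum then begin to lay down new matrix. Wnt and BMP ligands are main signals that set the activity of osteoblasts.

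Each gene was read by 60-base probes, and many genes had several. Levels are quantile normalized log2 signals, which cannot be compared between genes, and differences are laser minus control on that scale, given with the standard error from limma (n = 4 arrays per group). A gene's level and difference are those of its brightest probe unless stated. Because every laser array lay on one slide and every control and bur array on another, the effect of ablation and that of the slide cannot be told apart by any fit, and genes read the same way by several probes were given most weight. Many genes described, such as Runx2 and Cdk1, had 1 measurable probe, so no other probe checks them. That is so wherever a gene's difference is given without mention of its probes. Probes of 3 genes show what agreement and disagreement look like, and the first 30 bases of each are given 5′ to 3′ in the sense of the transcript, all in lower case since no base is singled out. The positions are those of the file on rat build rn4, for the whole probe, and 2 of them span more than the probe because the file's alignment is split. An rn4 gene annotation was not used here, so exon and UTR are not given. Col6a3, a chain of collagen VI on the minus strand, was read higher by all 4 of its probes:
Col6a3 probe 1, chr9:89965077.0-89965136.0: tttttggtggtcctctaaggcggattattt
Col6a3 probe 2, chr9:89966522.0-89966581.0: tactatggcactatgacttagagagcaaaa
Col6a3 probe 3, chr9:90009145.0-90009204.0: cagttcagtgatgacgtcagggtggagtcc
Col6a3 probe 4, chr9:89977679.0-89977738.0: atgatgtcttcttcaaattcatggacaaat

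Mki67, the gene of the Ki-67 proliferation antigen, lies on the minus strand and was read in opposite directions by its 4 probes. It was chosen for this purpose after its values were seen:
Mki67 probe 1, chr1:195310145.0-195310204.0: ctgtgcttaaggaaggaagctttgagcttt
Mki67 probe 2, chr1:195310343.0-195313027.0: cgaggggccaagaaagatgcaaaaactctg
Mki67 probe 3, chr1:195314463.0-195314522.0: gagaaactaagacatgacactaatattctt
Mki67 probe 4, chr1:195310299.0-195310358.0: cattgtatacaccaagaaattaagaacaag

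Rpl27a, a protein of the large ribosomal subunit encoded on the plus strand, was read by 3 probes that start at bases 304, 394 and 449 of the same transcript:
Rpl27a probe 1, chr1:167116751.0-167117714.0: aacaagactggagttgctcccatcattgac
Rpl27a probe 2, chr1:167117745.0-167117804.0: atcgtgaaggacaaattcttcagcagaaga
Rpl27a probe 3, chr1:167117800.0-167117859.0: gaggtgcctgtgtcctggtggcttaaagcc

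The Col6a3 probes differed between laser and control by 1.41, 2.08, 1.42 and 2.16 on the log2 scale, in the order shown, although their brightness spanned a wide range. The Mki67 probes differed by -1.61, -0.49, -1.32 and 1.99. Mki67 probe 4 starts at base 9548 of the transcript, between probe 2 at 9504 and probe 1 at 9702, and it read 9.71, 9.56, 9.20 and 9.49 on laser arrays 1 to 4 against 8.22, 7.85, 7.41 and 6.53 on control arrays 1 to 4, the reverse of the brightest probe. The Rpl27a probes differed by -0.56, 4.43 and 0.44. Rpl27a probe 2 read 11.47, 11.25, 11.26 and 11.20 on the laser arrays against 6.94, 7.14, 6.85 and 6.52 on the control arrays, while probe 1 was lower on all 4 laser arrays. A single probe of either gene would therefore have given a direction that another probe of that gene contradicts.

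The arrays themselves differed in brightness, with a median signal, before normalization, of 55.6 to 81.9 in laser and 16.5 to 43.2 in control, and 67.5% to 72.0% of rat probes were well above background on the laser arrays against 57.2% to 64.4% on the control arrays. Spike-in transcripts are added to every sample in fixed proportions, so the difference between a pair of them should not move with the tissue. The spike-in probe E1A_r60_n9 exceeded E1A_r60_n11 by 1.19 to 1.40 on the log2 scale on the laser arrays, by 0.196 to 0.587 on the control arrays and by 0.156 to 0.482 on the bur arrays. The laser range stood apart from both groups of the other slide. Before normalization, laser minus control was 2.10 for E1A_r60_n9, the widest of the spike-in probes. It was 0.84 to 1.40 for the others, 1.11 for E1A_r60_n11 among them, so pairs without E1A_r60_n9 moved less. Of 18 osteoblast genes, 16 were measurable, with a mean level of 10.6 to 11.1 per array in laser and 9.47 to 10.5 in control. Markers of other tissues were measurable too, 12 of 14 for skeletal muscle, so this does not test the bone label. Among the controls, arrays 1 and 4 stood apart with 13.29 and 12.37 for Mbp, the myelin basic protein, against 7.87 and 8.14 on control arrays 2 and 3 and 7.41 to 7.81 on the laser arrays. Most counts and calls that change without controls 1 and 4 are given without them as well.

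**Figure D1:**
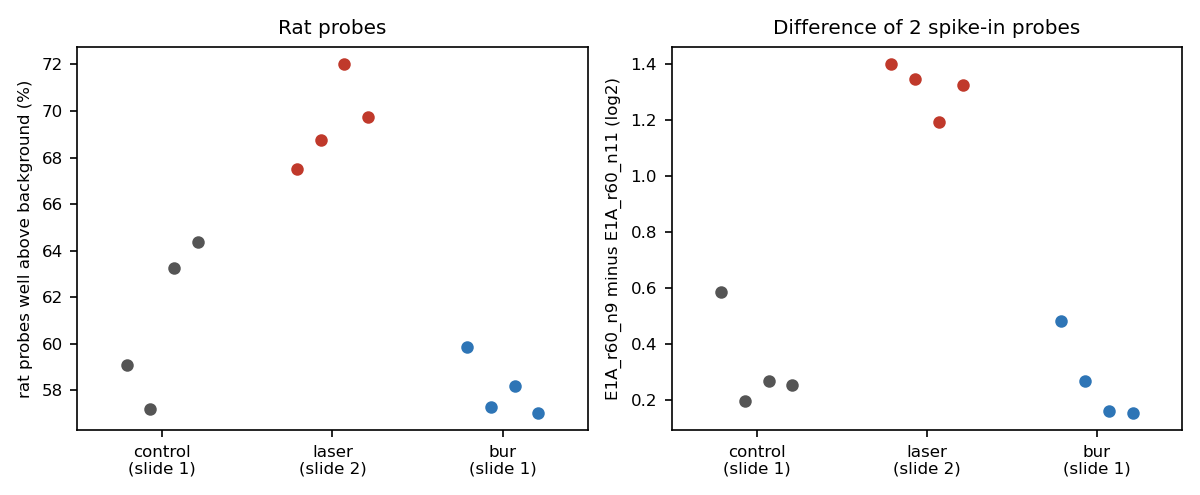
The left panel plots the percent of rat probes well above background, and the right panel the log2 difference of spike-in probes E1A_r60_n9 and E1A_r60_n11, for each of the 12 arrays by group and slide. The 4 laser arrays lie above the 8 arrays of the other slide in both panels, between 67.5% and 72.0% on the left and between 1.19 and 1.40 on the right.

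Of 16396 genes tested, 2988 (18.2%) were higher and 2652 (16.2%) lower on the laser arrays at an adjusted p under 0.05 (limma, Benjamini-Hochberg), and 34.4% changed in either direction. The median difference over all genes was 0.01 on the log2 scale. In 5776 genes (35.2%) the 4 laser values did not overlap the 4 control values. At 2-fold or more, 1738 genes were higher and 773 lower. These counts depend on the filter, since a dim probe read above background by the 4 laser arrays alone was kept. Of 12159 genes with probes above background on all 12 arrays, 2046 were higher and 2649 lower (limma, adjusted p under 0.05). The counts of agreeing probes below used the wider filter. Without controls 1 and 4, 1821 genes (11.1%) were higher and 2221 (13.5%) lower. List counts given below without these controls are to be set beside those shares, and list counts from all arrays beside 18.2% and 16.2%. Most calls rested on a single probe, which was so for 3868 of the 5640 called genes.

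In 4810 genes with at least 2 measurable probes, every probe was called higher in 185 (3.85%) and every probe lower in 245 (5.09%), 8.94% in all. Without laser 1 the probes of 269 genes were called the same way, and without laser 2 those of 277. In 154 genes probes were called in opposite directions. Bur against control, which share slide 1 and the same controls, called 13.7% of all genes higher and 9.74% lower, and gave 285 genes with every probe higher, 192 with every probe lower and 5 with opposite calls. Across the 4810 genes, which share arrays and are not independent replicates, the differences of the 2 brightest probes correlated at r = 0.40 for laser and 0.72 for bur, and had the same sign in 64.0% and 73.3%. Over the 837 genes whose second probe had a mean level above 8, r was 0.56 for laser and 0.89 for bur. The part of the slide in this gap was not tested. In 59 of the 430 agreeing genes some probes shared 20 or more bases and were not independent readings.

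**Figure D2:**
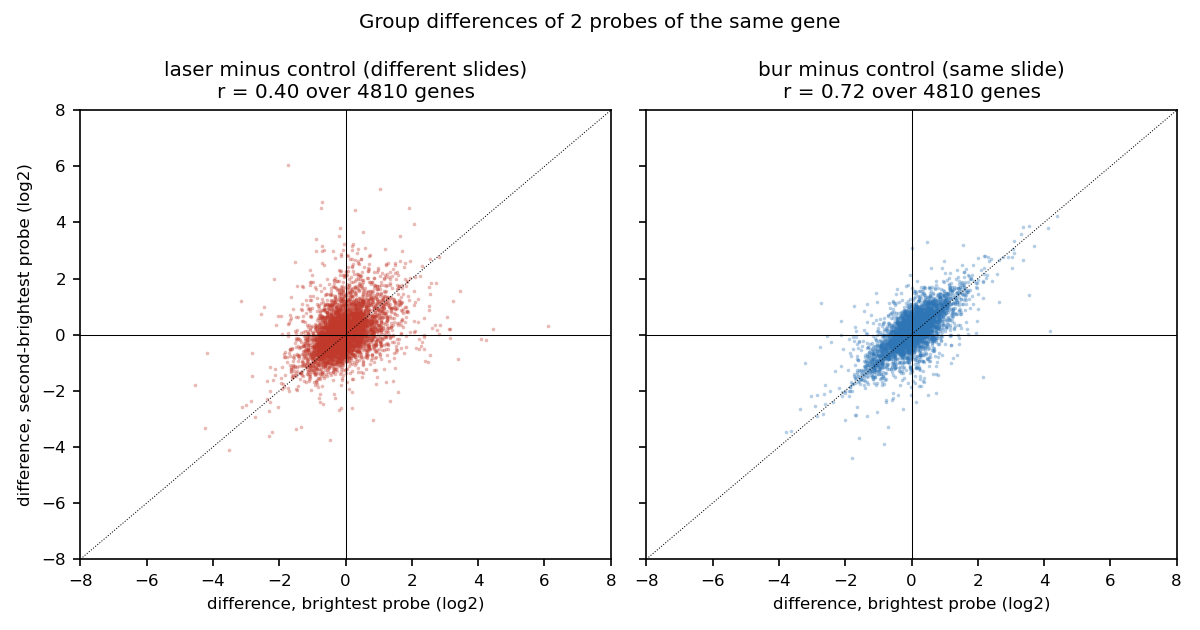
Each point is 1 of 4810 genes with at least 2 measurable probes, with the log2 difference from control of its brightest probe on the x axis and of its second-brightest probe on the y axis, for laser on the left and bur on the right. The laser cloud is wider across the dotted line of equality (r = 0.40) than the bur cloud (r = 0.72), with single genes at differences above 4 for one probe and near 0 for the other.

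Among genes with every probe called higher, the widest difference was that of B3gnt9, which encodes a glycosyltransferase of the beta-1,3-N-acetylglucosaminyltransferase family. B3gnt9 read 7.93, 7.99, 7.64 and 7.39 on laser arrays 1 to 4 and 4.79, 4.24, 4.19 and 3.98 on control arrays 1 to 4. The groups did not overlap, and the difference of 3.44 ± 0.28 on the log2 scale (10.8-fold, adjusted p = 1.13e-05, limma) was 1.55 by its other probe, which 1 control array read above background. Pals2, a scaffold protein of cell junctions, read 12.29, 12.48, 12.90 and 11.45 on laser arrays 1 to 4 and 10.01, 9.48, 8.70 and 8.66 on control arrays 1 to 4. Its brightest probe rose by 3.07 ± 0.35 and its other probe by 0.64, so the direction was shared and the size was not. The brightest probe begins with a run of the bases ca repeated, and the part of this repeat in its size was not tested. Cacna1i, a T-type calcium channel subunit, rose by 2.81 ± 0.24 on the log2 scale, but its 2 probes share sequence. Among those that fell, Slc16a10, a transporter of aromatic amino acids, read 7.25, 7.29, 7.85 and 7.99 on laser arrays 1 to 4 and 9.12, 9.36, 9.94 and 9.37 on control arrays 1 to 4. It fell by 1.85 ± 0.28 on the log2 scale (3.61-fold, adjusted p = 0.000585), and its other probe differed by -1.86. Against bur, which lies on the control slide, so that this comparison has the same slide difference, 25.9% of all genes were called. By their brightest probes, B3gnt9, Pals2 and Cacna1i were higher than on the bur arrays, by 2.499, 2.26 and 2.66. The other B3gnt9 probe differed from control by 1.55 in laser and 1.93 in bur, so by that probe laser was not above bur. For Pals2 the other probe differed from control by 0.64 in laser and 0.23 in bur. Slc16a10 was not called against bur (adjusted p = 0.556).

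Sost, the gene of the Wnt antagonist sclerostin that osteocytes secrete, was not called. Sost read 5.23, 5.76, 5.37 and 4.27 on laser arrays 1 to 4 and 5.63, 6.35, 5.93 and 4.45 on control arrays 1 to 4, and the groups overlapped. The difference was -0.44 ± 0.48 (95% interval -1.49 to 0.62, adjusted p = 0.513, limma) with 1 probe, and the exact two-sided permutation test gave p = 0.400, where 4 against 4 arrays cannot go below 0.0286. Against bur, Sost differed by -0.63 (adjusted p = 0.375). Among the 9 secreted Wnt antagonists measured, 1 was higher and none lower. That one was Dkk3, which read 7.02, 7.16, 7.72 and 7.21 on laser arrays 1 to 4 and 5.67, 6.06, 7.22 and 6.56 on control arrays 1 to 4. Control array 3 lies within the laser range. The rise of 0.91 ± 0.30 (adjusted p = 0.0360) was seen with 1 of 2 probes. It was lost under 12 of the alternative settings, among them without controls 1 and 4.

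Wnt ligands, receptors and feedback targets were higher in 6 and lower in 1 of 21 measured, with a median difference of 0.72. The counts were 5 and 1 without controls 1 and 4. Wnt5a, a ligand that acts mainly outside the beta-catenin route, read 4.59, 4.97, 5.22 and 4.84 on laser arrays 1 to 4 and 2.72, 2.95, 3.43 and 3.56 on control arrays 1 to 4. No laser value fell to the control range, and 2 of the 4 control arrays read it above background. It rose by 1.74 ± 0.24 on the log2 scale (3.34-fold, adjusted p = 0.000372), while its other probe was above background on no control array and gives no size. Lrp6, the coreceptor to which Wnt ligands and sclerostin bind, read 6.43, 6.33, 6.33 and 6.07 on laser arrays 1 to 4 and 5.16, 5.10, 5.57 and 5.0 on control arrays 1 to 4. The groups did not overlap, and Lrp6 rose by 1.08 ± 0.15 (2.12-fold, adjusted p = 0.000409). The 2 probes of Lrp6 cover the same position, so the second is a repeat and not an independent reading. Nkd2, a feedback inhibitor of Wnt signalling, rose by 1.099 ± 0.33 with both probes (adjusted p = 0.0253), but its groups overlapped. Its call was lost under 5 settings: without laser 1, laser 2, control 3 or control 4, and without controls 1 and 4. Wnt1, a ligand of the beta-catenin route, was well above background on all 4 laser arrays and on none of the controls. Its level was at least 7.24-fold higher in laser, where each dim array counts as the higher of its own reading and the weakest signal that passed as above background on that array. Against bur, Wnt5a was higher by 0.76 (adjusted p = 0.0406) and Lrp6 by 0.60 (adjusted p = 0.0151).

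Osteoblast regulators and matrix genes were higher in 10 of 16 measured and lower in none, against 18.2% and 16.2% of all genes, with a median difference of 0.87. The higher count was 3 and the median 0.81 without controls 1 and 4. In RNA from whole bone, more cells of a type and more RNA per cell cannot be told apart. Runx2, the transcription factor that commits cells to the osteoblast lineage, read 9.04, 9.14, 8.92 and 8.71 on laser arrays 1 to 4 and 7.47, 8.25, 8.24 and 7.86 on control arrays 1 to 4. Its groups did not overlap, and it rose by 0.997 ± 0.21 (adjusted p = 0.00463). Alpl, the phosphatase that frees phosphate for mineral, rose by 1.48 ± 0.29 by its brightest probe (adjusted p = 0.00305), while its other probe was not called. Phospho1, a phosphatase of matrix vesicles, rose by 0.83 ± 0.19, and Sp7, the osteoblast factor osterix, by 1.505 ± 0.37 from a level that 2 control arrays read above background. Both calls were lost without controls 1 and 4. None of these 4 genes passed the test against bur.

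Osteocyte genes were higher in 5 and lower in 1 of 14. Mepe, a phosphoprotein of mineralized matrix, read 13.83, 14.44, 14.50 and 13.12 on laser arrays 1 to 4 and 11.94, 11.97, 12.99 and 12.02 on control arrays 1 to 4. The groups did not overlap, and the rise was 1.74 ± 0.39 (adjusted p = 0.00609). Tnfrsf11b, the RANKL decoy osteoprotegerin, rose by 1.89 ± 0.34 (3.70-fold, adjusted p = 0.00167). Phex, an endopeptidase of phosphate balance, rose by 2.01 ± 0.52, with control 2 inside the laser range and only 1 control array above background. Without controls 1 and 4, 1 osteocyte gene was higher and 1 lower, and the calls of Mepe and Phex were lost while that of Tnfrsf11b was kept. The higher share was then 7.14%, below the 11.1% of all genes. The lower gene was Reln, the secreted glycoprotein reelin, which fell by 2.12 ± 0.34 (4.36-fold, adjusted p = 0.000938) with all 3 probes. Reln read 5.89, 5.93, 5.63 and 5.88 on laser arrays 1 to 4 and 8.86, 7.46, 6.95 and 8.55 on control arrays 1 to 4, and controls 1 and 4 held its highest values. The difference without them was -1.37 (2.59-fold lower), and Reln is described again with the neural genes.

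Osteoclast genes went both ways, 3 higher and 2 lower of 15, near the 18.2% and 16.2% of all genes, or 1 and none without controls 1 and 4. The higher share was then 6.67%, below the 11.1% of all genes. Ctsk, the collagenase of osteoclasts, cathepsin K, read 14.11, 13.85, 14.68 and 14.29 on laser arrays 1 to 4 and 12.83, 12.93, 13.13 and 12.90 on control arrays 1 to 4. It rose by 1.28 ± 0.19 (adjusted p = 0.000520), did not overlap, and was also higher than in bur by 1.26 (adjusted p = 0.000791). Ctsk stood in the periosteal list and in the osteoclast list. Ocstamp, a protein of osteoclast fusion, rose by 1.16 ± 0.30 by its brightest probe, while its other probe was not called. Clcn7, the chloride channel of the resorbing membrane, rose by 1.05 ± 0.30. Car2, the carbonic anhydrase that supplies the acid and that red cells also contain, fell by 0.75 ± 0.20 on the log2 scale (adjusted p = 0.0131). The calls of Ocstamp, Clcn7 and Car2 were lost without controls 1 and 4, and that of Clcn7 also without laser 3.

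Collagen chains were higher in 12 of 21 and lower in none, with a median difference of 0.99. Without controls 1 and 4 the higher count was 5 and the median 0.85. Col6a3, whose 4 probes are shown above, read 12.38, 13.18, 13.22 and 12.43 on laser arrays 1 to 4 and 11.12, 11.27, 11.75 and 11.42 on control arrays 1 to 4. The lowest laser value lay above the highest control value, and the brightest probe rose by 1.41 ± 0.25 (2.66-fold, adjusted p = 0.00148). Col3a1, the fibrillar collagen of early repair tissue, read 12.13, 13.51, 13.92 and 12.51 on laser arrays 1 to 4 and 11.21, 11.38, 11.02 and 10.92 on control arrays 1 to 4. It rose by 1.89 ± 0.40 (adjusted p = 0.00444) without overlap. Col8a1, a short-chain collagen, rose by 2.39 ± 0.39 (5.25-fold, adjusted p = 0.000952) and was also higher than in bur, by 1.76 (adjusted p = 0.00727). Col6a3 and Col3a1 were not called against bur, with differences of 0.26 and -0.05.

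Collagen processing enzymes were higher in 9 of 18 and lower in none, against 18.2% and 16.2% of all genes. Without controls 1 and 4, 1 of 18 was higher (5.56%), below the 11.1% of all genes in that fit. Lox, lysyl oxidase, which cross-links collagen, was higher by all 4 of its probes, with differences of 1.52 to 1.71. Lox read 12.67, 12.41, 12.72 and 11.36 on laser arrays 1 to 4 and 10.86, 11.65, 10.00 and 9.81 on control arrays 1 to 4. Laser 4 lay below control 2, so the groups overlapped, and the rise of 1.71 ± 0.42 (adjusted p = 0.0100) was lost without controls 1 and 4. Crtap, a subunit of the collagen prolyl 3-hydroxylase complex, read 6.64, 6.15, 6.35 and 6.53 on laser arrays 1 to 4 and 4.46, 4.60, 3.93 and 4.03 on control arrays 1 to 4. It rose by 2.17 ± 0.39 (4.49-fold, adjusted p = 0.00167) and exceeded bur by 2.01 (adjusted p = 0.00355). Serpinh1, the collagen chaperone HSP47, picked after its values were seen, was called higher by both probes (1.25 ± 0.41, adjusted p = 0.0349). That call was lost under 9 settings, among them without controls 1 and 4.

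Matrix proteases and their inhibitors were higher in 9 of 18 and lower in none, and in 3 without controls 1 and 4. Timp1, an inhibitor of matrix metalloproteinases, read 14.32, 14.71, 14.65 and 13.41 on laser arrays 1 to 4 and 12.99, 13.32, 11.95 and 11.34 on control arrays 1 to 4. It did not overlap and rose by 1.87 ± 0.41 (3.66-fold, adjusted p = 0.00525). Adamts4, an aggrecanase, rose by 1.75 ± 0.38 (adjusted p = 0.00505). Adamts1, a protease of versican and aggrecan, rose by 1.17 ± 0.31 by its brightest probe (adjusted p = 0.0135). A dimmer Adamts1 probe was above background on all laser arrays and no control array. It was kept only because the laser arrays read it, and gives no size. Mmp2, the gelatinase that cleaves denatured collagen, picked after its values were seen, rose by 1.03 ± 0.31 with both probes (adjusted p = 0.0256), with control 2 inside the laser range and the call lost under 7 settings. The calls of Adamts4, Adamts1 and Mmp2 were lost without controls 1 and 4, and that of Timp1 was kept.

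Periosteal and fibroblast markers were higher in 9 of 17 and lower in none, with a median difference of 1.16. Leaving out controls 1 and 4 left 8 higher and a median of 0.77. Prrx1, a homeobox factor of mesenchymal progenitors, read 11.25, 11.40, 11.43 and 10.70 on laser arrays 1 to 4 and 9.22, 10.01, 9.23 and 8.93 on control arrays 1 to 4. It rose by 1.85 ± 0.27 (3.60-fold, adjusted p = 0.000482) without overlap, and was above bur by 0.86 (adjusted p = 0.0368). Scx, the tendon and ligament factor scleraxis, rose by 1.90 ± 0.34 (adjusted p = 0.00169), and Aspn, the small proteoglycan asporin, by 2.79 ± 0.50 (6.93-fold, adjusted p = 0.00174), with 2 control arrays above background. Neither Scx nor Aspn was called against bur. All 4 groups of matrix and mesenchymal genes above were read higher on the slide with the brighter arrays, and the part of the slide in them was not tested. Among genes with several probes, every probe was called higher in 2 of 10 collagen chains, 2 of 6 processing enzymes and 2 of 6 proteases and inhibitors. It was so in none of 3 periosteal markers, 1 of 4 osteoblast genes and 3 of 7 Wnt genes, against 3.85% of all such genes.

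Among wound matrix proteins 5 were higher and 1 lower of 17, and without controls 1 and 4 the counts were 1 and 1. The higher share was then 5.88%, below the 11.1% of all genes. Tnc, tenascin C, which appears in provisional matrix, read 8.62, 8.49, 8.37 and 8.09 on laser arrays 1 to 4 and 7.02, 7.16, 7.02 and 6.82 on control arrays 1 to 4. The groups did not overlap, and both probes rose, the brightest by 1.39 ± 0.21 (2.62-fold, adjusted p = 0.000569). Postn, periostin, read 9.46, 10.97, 9.81 and 8.90 on laser arrays 1 to 4 and 8.14, 8.92, 6.69 and 6.59 on control arrays 1 to 4. Laser 4 lay below control 2, and the rise of 2.20 ± 0.59 (adjusted p = 0.0145) was lost without controls 1 and 4. Thbs1, thrombospondin 1, an inhibitor of vessel growth, fell by 0.69 ± 0.24 on the log2 scale with both probes (adjusted p = 0.0424), with overlapping groups and the call lost under 11 settings. Thbs1 was also called lower than bur (difference -0.77, adjusted p = 0.0347). In the plasminogen and coagulation list, 5 were higher and 2 lower of 17, or 2 and 1 without controls 1 and 4. F13a1, the A chain of clotting factor XIII, fell by 1.25 ± 0.34 on the log2 scale (adjusted p = 0.0166), and this call was lost without laser 1 and without controls 1 and 4. F13a1 also differed from bur, by -1.69 (adjusted p = 0.00478).

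BMP and TGF-beta pathway genes were higher in 9 of 25 and lower in none, and in 7 without controls 1 and 4. None of the 9 with several probes had every probe called higher. Bmp3, an antagonist within the BMP family that is abundant in bone, read 7.35, 7.16, 6.37 and 6.41 on laser arrays 1 to 4 and 5.23, 6.03, 4.54 and 4.01 on control arrays 1 to 4. It rose by 1.87 ± 0.39 (adjusted p = 0.00389) without overlap and was above bur by 1.29 (adjusted p = 0.0316). Bmp7, an osteogenic ligand, rose by 1.36 ± 0.29 (adjusted p = 0.00421). Bmpr1a, a type I BMP receptor, rose by 1.06 ± 0.22 by its brightest probe (adjusted p = 0.00376), while its other probe differed by 0.26 and neither it nor the mean of both was called.

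Of EGF and FGF ligands and receptors, 4 of 13 were higher and 1 lower, and 1 and 1 without controls 1 and 4. Fgfr1, a receptor of fibroblast growth factors, read 12.64, 12.53, 12.32 and 11.81 on laser arrays 1 to 4 and 11.01, 11.31, 10.33 and 10.45 on control arrays 1 to 4. It rose by 1.55 ± 0.25 (2.93-fold, adjusted p = 0.000905) with 2 of 3 probes called, and was above bur by 1.29 (adjusted p = 0.00357). Fgf1, one of its ligands, was called higher by both probes (1.21 ± 0.40, adjusted p = 0.0367), with overlapping groups. That call was lost under 10 settings, among them without controls 1 and 4. Areg, the EGF receptor ligand amphiregulin, fell by 1.33 ± 0.34 on the log2 scale (adjusted p = 0.0125). YAP and TAZ targets, genes that respond to cell tension and spreading, were higher in 5 of 13 and lower in none, and in 1 without controls 1 and 4. That last count was 7.69%, below the 11.1% of all genes in the same fit. None of the 4 targets with several probes had every probe called higher. Ccn2, connective tissue growth factor, rose by 1.25 ± 0.31 with overlapping groups (adjusted p = 0.00995, lost without controls 1 and 4), and Ajuba, a LIM protein of adherens junctions, by 1.35 ± 0.29 without overlap (adjusted p = 0.00503). Of 12 insulin-like growth factors and binding proteins, 1 was higher and 1 lower. The lower one, Igfbp2, read 3.99, 3.91, 3.21 and 4.05 on laser arrays 1 to 4 and 8.41, 6.33, 6.01 and 7.80 on control arrays 1 to 4. It fell by 3.35 ± 0.65 on the log2 scale (10.2-fold, adjusted p = 0.00279), with controls 1 and 4 again the highest. Leaving those out, the difference was -2.38 (5.20-fold lower, adjusted p = 0.0325).

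**Figure D3:**
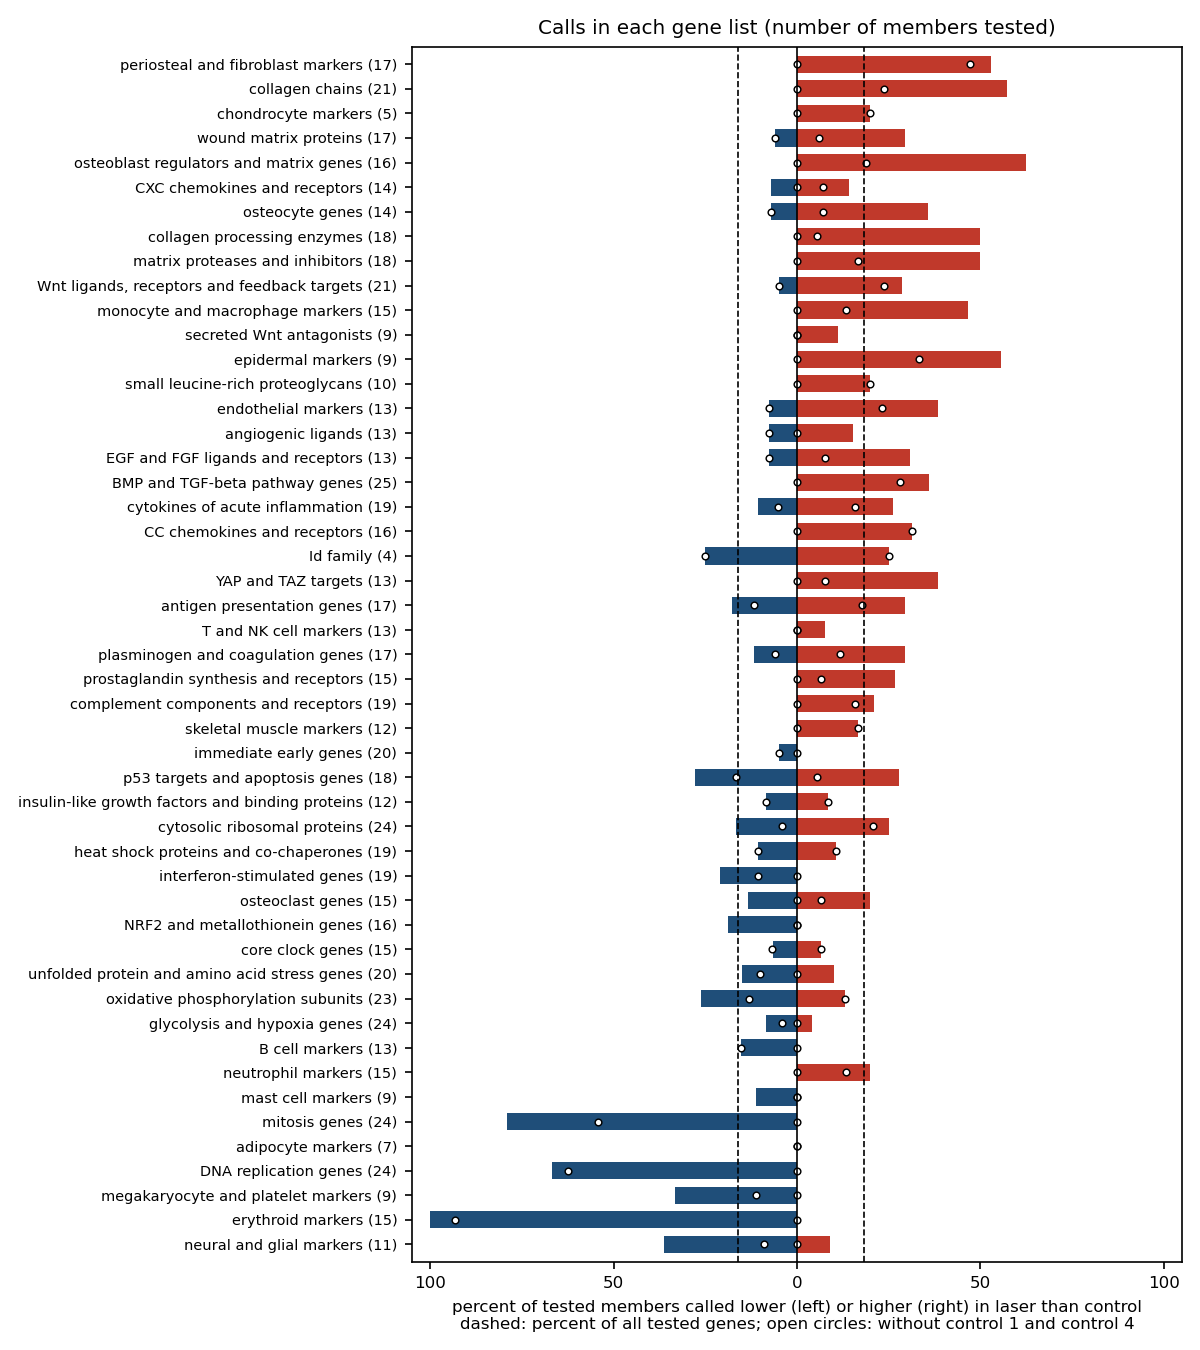
Bars give the percent of measured members of each gene list called lower (left, blue) or higher (right, red) in laser than in control, with the number measured in brackets and the lists ordered by median difference. Dashed lines mark the 16.2% lower and 18.2% higher of all genes, and open circles the counts without controls 1 and 4: erythroid markers were lower in 15 of 15 with all arrays and in 14 without, and collagen chains higher in 12 of 21 and in 5.

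CC chemokines and receptors were higher than control in 5 of 16 and lower in none, with and without controls 1 and 4. None of the 4 with several probes had every probe called higher. Against bur, 1 was higher and 8 were lower in laser, where 11.6% of all genes were higher and 14.3% lower. Ccl2, which attracts monocytes, read 10.61, 10.32, 10.33 and 10.97 on laser arrays 1 to 4 and 10.38, 9.13, 8.60 and 7.83 on control arrays 1 to 4. Control 1 lay within the laser range, and the rise was 1.57 ± 0.42 (adjusted p = 0.0151). On bur arrays 1 to 4 Ccl2 read 13.33, 13.03, 13.22 and 13.60, above every laser array, and the difference from bur was -2.74 (adjusted p = 0.000970). Ccl7, a related monocyte chemokine, read 9.33, 8.61, 8.88 and 9.46 on laser arrays 1 to 4 and 8.02, 7.32, 6.33 and 5.48 on control arrays 1 to 4. It rose by 2.28 ± 0.45 (4.86-fold, adjusted p = 0.00294) and differed from bur by -2.89 (adjusted p = 0.000992). Ccl12 rose by 3.05 ± 0.65 (8.28-fold, adjusted p = 0.00443) and differed from bur by -2.15 (adjusted p = 0.0316). Laser thus lay between control and bur for these 3 monocyte chemokines. Ccl22, a ligand of CCR4 made by macrophages and dendritic cells, read 9.98, 9.82, 10.44 and 9.30 on laser arrays 1 to 4 and 8.17, 8.80, 8.23 and 7.87 on control arrays 1 to 4. It rose by 1.62 ± 0.29 (adjusted p = 0.00181), the other 2 probes being above background on 1 and 0 control arrays, and was above bur by 1.21 (adjusted p = 0.0117). Of 14 CXC chemokines and receptors, 2 were higher and 1 lower, or 1 and none without controls 1 and 4. Cxcl16, a scavenger receptor and ligand of CXCR6, rose by 1.38 ± 0.21 (adjusted p = 0.000586) without overlap.

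Monocyte and macrophage markers were higher in 7 of 15 and lower in none, and in 2 without controls 1 and 4. None of the 4 with several probes had every probe called higher. Cd68, a lysosomal protein of macrophages, read 11.40, 11.20, 11.36 and 11.68 on laser arrays 1 to 4 and 9.96, 9.76, 10.82 and 10.63 on control arrays 1 to 4. It rose by 1.12 ± 0.22 (adjusted p = 0.00316) without overlap, and was not called against bur. Cd14, the coreceptor for lipopolysaccharide, rose by 1.05 ± 0.31 (adjusted p = 0.0225) and differed from bur by -1.74 (adjusted p = 0.00218). Its call against control was lost under 6 settings, among them without controls 1 and 4. Neutrophil markers were higher in 3 of 15 and lower in none, near the 18.2% of all genes, with a median of -0.38, below 0. Without controls 1 and 4, 2 of them were higher. S100a9, a subunit of calprotectin, read 15.75, 16.05, 15.81 and 16.16 on laser arrays 1 to 4 and 15.12, 14.96, 15.05 and 15.04 on control arrays 1 to 4. It rose by 0.90 ± 0.16 (adjusted p = 0.00150) and was above bur by 1.41 (adjusted p = 0.000117). Of 13 T and NK cell markers 1 was higher and none lower, and that call was lost without controls 1 and 4. Of 13 B cell markers none was higher and 2 were lower, near the 16.2% of all genes. Cd22, an inhibitory receptor of B cells, fell by 1.74 ± 0.26 by its brightest probe alone, out of 3, and its mean over probes was not called. Pax5, the B cell lineage factor, fell by 0.97 ± 0.19 on the log2 scale (adjusted p = 0.00268).

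Cytokines of acute inflammation were higher in 5 and lower in 2 of 19 against control (3 and 1 without controls 1 and 4), and higher in 1 and lower in 9 against bur. Lif, a cytokine of the interleukin-6 family, read 4.17, 3.54, 3.75 and 4.31 on laser arrays 1 to 4 and 1.75, 3.08, 0.86 and 1.75 on control arrays 1 to 4. It was well above background on all 4 laser arrays and on no control array, and its level was at least 2.82-fold higher in laser. The 2 Lif probes share sequence, and no control array read either above background. Il6 itself read 2.82, 3.80, 3.09 and 3.79 on laser arrays 1 to 4 and 0.77, 0.58, 0.59 and 0.56 on control arrays 1 to 4. No control array read it above background, so its level was at least 1.91-fold higher in laser, and the call was lost with normexp background correction. Lif and Il6, both among the 5 higher, entered the test only because the laser arrays read them above background. Their direction is therefore not independent of that filter. Il11, a cytokine of the same receptor family that acts on bone cells, read 6.22, 6.88, 6.49 and 4.93 on laser arrays 1 to 4 and 3.57, 4.82, 4.09 and 2.89 on control arrays 1 to 4. It rose by 2.29 ± 0.53 (adjusted p = 0.00724), with 2 control arrays above background and the call lost without controls 1 and 4. Il18, an inflammasome product, rose by 1.25 ± 0.17 (adjusted p = 0.000383) without overlap. Csf3, the neutrophil growth factor G-CSF, read 6.30, 5.68, 5.59 and 6.52 on laser arrays 1 to 4 and 7.92, 8.05, 7.91 and 6.78 on control arrays 1 to 4. It fell by 1.64 ± 0.29 on the log2 scale (3.12-fold, adjusted p = 0.00169) without overlap. Lif was above bur by 1.52 (adjusted p = 0.0338), and Il6, Il11, Il18 and Csf3 were not called against bur.

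Complement components and receptors were higher in 4 of 19, near the share of all genes, and lower in none. Without controls 1 and 4, 3 were higher. C3ar1, the receptor of the anaphylatoxin C3a on myeloid cells, read 8.14, 8.62, 7.66 and 8.99 on laser arrays 1 to 4 and 6.75, 7.29, 6.78 and 6.30 on control arrays 1 to 4. The groups did not overlap, and its 3 probes rose by 1.57 to 1.86 (adjusted p of the brightest = 0.00453). On bur arrays 1 to 4 C3ar1 read 9.89, 10.25, 10.06 and 11.10, and the difference from bur was -1.97 (adjusted p = 0.00165). Prostaglandin genes were higher in 4 of 15 and lower in none, and in 1 without controls 1 and 4. That last count was 6.67%, below the 11.1% of all genes in the same fit. Ptgs2, the inducible cyclooxygenase COX-2, read 7.58, 7.93, 7.11 and 7.01 on laser arrays 1 to 4 and 5.66, 6.67, 6.15 and 5.43 on control arrays 1 to 4. Its groups did not overlap, and the brightest of 3 probes rose by 1.43 ± 0.31 (2.69-fold, adjusted p = 0.00462). That call was lost without controls 1 and 4, and the difference from bur of -0.80 was not called (adjusted p = 0.0775). The other 2 Ptgs2 probes were above background on all laser arrays and no control array. Hpgd, the dehydrogenase that inactivates prostaglandins, rose by 1.80 ± 0.39 (adjusted p = 0.00462), with 2 control arrays above background.

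**Figure D4:**
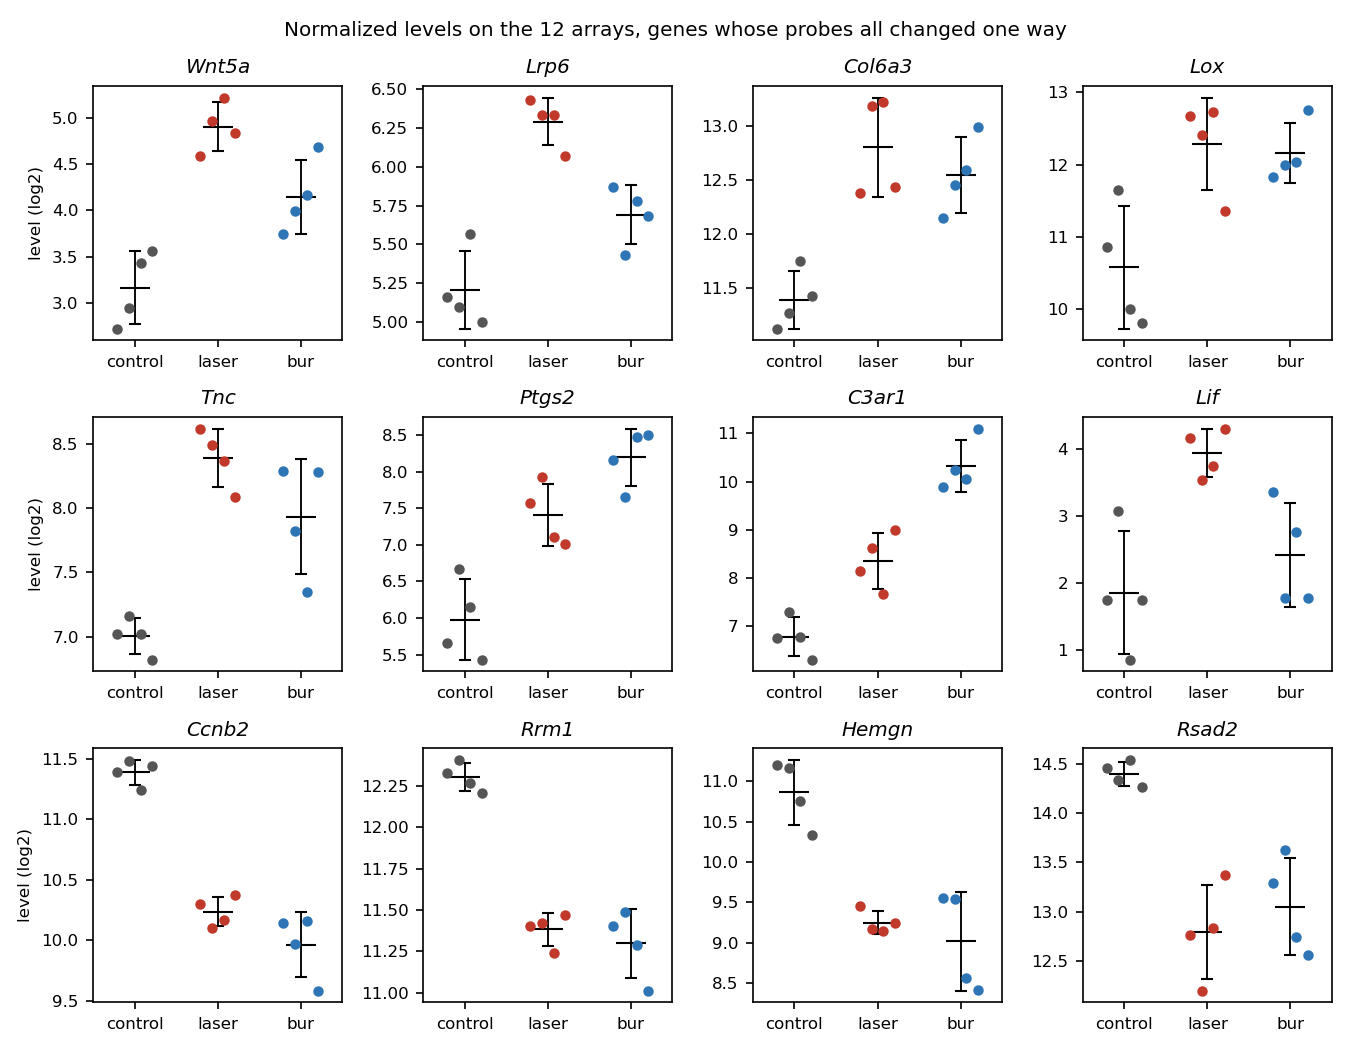
Points are the normalized log2 levels of 12 genes on the 12 arrays by group, from left to right replicates 1 to 4 within a group. Horizontal marks are means and bars the SD (n = 4). Control and laser points do not overlap in any panel other than that of Lox, and C3ar1 lies between control and bur, with laser at 7.66 to 8.99 and bur at 9.89 to 11.10.

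Erythroid markers were lower in 15 of 15, with a median difference of -1.46, where 16.2% of all genes were lower. Without controls 1 and 4, 14 of 15 were lower. None was called against bur. Epor, the erythropoietin receptor of erythroid progenitors, read 10.14, 10.29, 10.36 and 10.37 on laser arrays 1 to 4 and 11.75, 11.92, 11.78 and 11.55 on control arrays 1 to 4. The groups did not overlap, and it fell by 1.46 ± 0.19 on the log2 scale (2.74-fold, adjusted p = 0.000243). Hemgn, a nuclear protein of blood progenitors picked after its values were seen, read 9.45, 9.17, 9.14 and 9.24 on laser arrays 1 to 4 and 11.20, 11.16, 10.76 and 10.33 on control arrays 1 to 4. It fell by 1.61 ± 0.29 on the log2 scale (3.06-fold, adjusted p = 0.00162) without overlap and with both probes, which share sequence. The mean level of the 15 markers was 10.4 to 10.6 per array in laser and 11.7 to 12.3 in control. Megakaryocyte and platelet markers were lower in 3 of 9 and higher in none, and 1 of 9 mast cell markers was lower. Leaving out controls 1 and 4, these counts were 1 and 0.

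Genes of the cell cycle were lower as well. Of 24 mitosis genes, 19 were lower and none higher, with a median of -0.79. Of 24 DNA replication genes, 16 were lower and none higher, with a median of -0.84. Leaving out controls 1 and 4, 13 and 15 were lower. Cdk1, the kinase that starts mitosis, read 11.12, 10.86, 10.84 and 11.17 on laser arrays 1 to 4 and 12.31, 12.43, 12.21 and 12.38 on control arrays 1 to 4. It fell by 1.34 ± 0.14 on the log2 scale (2.52-fold, adjusted p = 6.97e-05) without overlap. Ccnb2, cyclin B2, read 10.30, 10.10, 10.17 and 10.37 on laser arrays 1 to 4 and 11.39, 11.48, 11.24 and 11.44 on control arrays 1 to 4. Both of its probes fell, the brightest by 1.15 ± 0.14 on the log2 scale (adjusted p = 0.000199). Rrm1, the large subunit of ribonucleotide reductase, read 11.40, 11.42, 11.24 and 11.47 on laser arrays 1 to 4 and 12.33, 12.41, 12.27 and 12.21 on control arrays 1 to 4. It fell by 0.92 ± 0.13 on the log2 scale (adjusted p = 0.000326), and the other probe was called lower too. Ccne1, cyclin E1 of the G1 to S step, fell by 1.56 ± 0.20 on the log2 scale (adjusted p = 0.000227). Every measured probe was called lower in 2 of the 7 mitosis genes and 5 of the 10 replication genes with several probes, against 5.09% of all such genes. Mki67 was the exception: the brightest of its 4 probes fell by 1.61 ± 0.25 on the log2 scale and the dimmest rose, as shown above, and its mean over probes was not called. Against bur, 9 of 24 mitosis genes were higher in laser and none lower, where 11.6% of all genes were higher. Of the 24 replication genes 3 were higher, near that share, and none lower, and Cdk1, Ccnb2, Rrm1 and Ccne1 were not called. The erythroid markers moved with these genes on the same arrays, and their part in the lower cell cycle genes was not tested.

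Neural and glial markers had the widest median difference of all 49 lists, -2.28, although only 4 of 11 were lower and 1 higher. Without controls 1 and 4 the median was -0.97, and 1 was lower and none higher. Mapt, the microtubule protein tau, read 5.11, 5.06, 5.89 and 5.53 on laser arrays 1 to 4 and 9.10, 6.36, 6.74 and 8.61 on control arrays 1 to 4. Its 2 probes differed by -2.31 and -2.73 (adjusted p of the brightest = 0.00855). Ntrk3, the neurotrophin-3 receptor, read 2.33, 1.93, 3.85 and 3.61 on laser arrays 1 to 4 and 6.07, 4.48, 5.71 and 6.90 on control arrays 1 to 4. The brightest probe, above background on 3 of 4 laser arrays, fell by 2.86 ± 0.54 on the log2 scale (adjusted p = 0.00241), and the next, also above background on 3, differed by -2.36. The other 2 probes were above background on 1 and 0 laser arrays and give no size. Without controls 1 and 4 the brightest probes of Mapt, Ntrk3 and Reln were still called, with smaller differences of -1.15, -2.16 and -1.37 (adjusted p = 0.0381, 0.0286 and 0.000781). Mobp, a myelin protein, was read by 4 probes, and the brightest differed by 0.93. That call was lost under 9 settings, among them without controls 1 and 4. The 3 dimmer ones, 1 of them above background on no laser array, were highest on controls 1 and 4, whereas the brightest was not, and the mean over probes turned the difference from 0.93 to -1.24. The mean level of the 11 markers was 4.29 to 7.51 on the control arrays and 3.42 to 5.18 on the laser arrays. None of Mapt, Ntrk3 and Reln was called against bur, with differences of -0.20, -0.97 and -0.04.

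**Figure D5:**
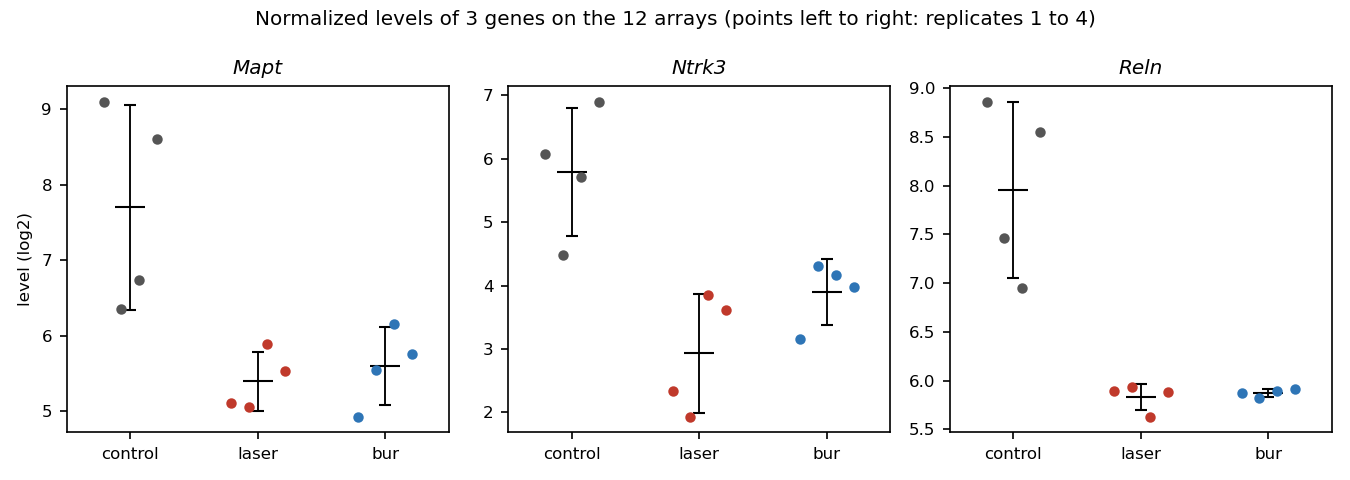
Points are the normalized log2 levels of Mapt, Ntrk3 and Reln on each array, from left to right replicates 1 to 4 within a group, with the mean and SD (n = 4). Control arrays 1 and 4 hold the highest control values in all 3 panels, for Mapt 9.10 and 8.61. The SD of control exceeds that of laser for Mapt and Reln and is near it for Ntrk3.

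Endothelial markers were higher in 5 and lower in 1 of 13, or 3 and 1 without controls 1 and 4. Esam, an adhesion molecule of endothelial junctions, read 7.74, 7.76, 7.78 and 7.75 on laser arrays 1 to 4 and 5.91, 6.18, 7.15 and 6.30 on control arrays 1 to 4. It rose by 1.38 ± 0.24 without overlap (adjusted p = 0.00134) and was above bur by 0.90 (adjusted p = 0.0174). Emcn, endomucin of bone capillaries, rose by 1.37 ± 0.26 (adjusted p = 0.00236). Vwf, von Willebrand factor, which platelets also store, fell by 1.01 ± 0.26 by its brightest probe (adjusted p = 0.0116) and not by the other. Of 12 skeletal muscle markers 2 were higher and none lower, near the 18.2% of all genes, with a median difference of 0.14. Ckm, the muscle creatine kinase, read 7.54, 7.37, 7.10 and 7.34 on laser arrays 1 to 4 and 2.41, 1.51, 3.39 and 6.58 on control arrays 1 to 4. The rise was 3.87 ± 1.07 (adjusted p = 0.0166), with 2 control arrays above background and control 4 far above the other controls, and 4.89 without controls 1 and 4. Acta1, skeletal actin, was above background on 1 control array alone, control 4, which lay inside the laser range. With the dim control arrays set to the array's floor, as for Wnt1, laser was 2.01-fold higher, and the call was lost with normexp background correction. Epidermal markers were higher in 5 of 9 and lower in none, and in 3 without controls 1 and 4, but 3 of those 5 were read above background by no control array and entered the test only because other arrays read them. Krt5, a keratin of basal epidermis, was above background on all laser arrays and on no control array, and its level allows no fold. Its call was lost with normexp background correction and with no filter on dim probes. Krt14, its partner keratin, read by no control array above background, was at least 1.59-fold higher, and the call was lost with normexp background correction and on the authors' deposited values. No adipocyte marker of 7 was called. Among lists not described further, 5 antigen presentation genes of 17 were higher and 3 lower, and 2 of 10 small leucine-rich proteoglycans were higher and none lower. Of 13 angiogenic ligands 2 were higher and 1 lower, of 5 chondrocyte markers 1 was higher, and of the 4 genes of the Id family 1 was higher and 1 lower. Leaving out controls 1 and 4, antigen presentation genes were higher in 3 and lower in 2, and angiogenic ligands higher in 0 and lower in 1.

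Heat shock, amino acid stress, NRF2 and immediate early genes were called higher or lower about as often as all genes or less. Heat shock proteins and co-chaperones were higher in 2 and lower in 2 of 19, with a median difference of 0.06. Hspa8, the constitutive HSC70, read 15.53, 15.57, 15.35 and 15.34 on laser arrays 1 to 4 and 15.05, 14.99, 14.80 and 14.90 on control arrays 1 to 4. It rose by 0.51 ± 0.12 (adjusted p = 0.00690) with 3 of 4 probes called, some of which share sequence. The overlapping probes, which start at bases 2019 and 2039, differed from control by 0.51 and 1.87 in laser. In bur they differed from control by 0.46 and 0.01, so the size was not shared. Hspb8, a small heat shock protein of chaperone-assisted autophagy, read 4.46, 4.44, 4.54 and 3.79 on laser arrays 1 to 4 and 0.80, 1.09, 3.18 and 1.43 on control arrays 1 to 4. Of the control arrays, 1 read it above background, and with the other 3 set to the array's floor laser was 2.97-fold higher. Of 20 genes of unfolded protein and amino acid stress, 2 were higher and 3 lower, or none and 2 without controls 1 and 4. Asns, asparagine synthetase, read 10.14, 9.87, 9.84 and 10.18 on laser arrays 1 to 4 and 11.25, 11.33, 10.84 and 10.86 on control arrays 1 to 4. Both probes fell, the brightest by 1.06 ± 0.18 on the log2 scale (adjusted p = 0.00114). NRF2 and metallothionein genes were lower in 3 of 16 and higher in none, and immediate early genes lower in 1 of 20. Targets of p53 and apoptosis genes were called in 5 of 18 in each direction, above both shares of all genes, and in 1 higher and 3 lower without controls 1 and 4. The 3 calls of NRF2 and metallothionein genes were all lost without those controls. Core clock genes were called in 1 of 15 in each direction. Per3, a clock gene, rose by 1.65 ± 0.20 (adjusted p = 0.000151), and its laser levels of 6.03, 6.08, 5.91 and 6.09 lay above all control and bur arrays.

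Glycolysis and hypoxia genes were higher in 1 and lower in 2 of 24 against control, and 19 of 24 were lower than in bur, where 14.3% of all genes were. Leaving out controls 1 and 4, none was higher and 1 lower than control. Pfkp, a phosphofructokinase, fell by 1.06 ± 0.18 on the log2 scale (adjusted p = 0.00139), and Pdk1, which diverts pyruvate from mitochondria, rose by 0.80 ± 0.20 (adjusted p = 0.0110) by 1 of 4 probes. That call of Pdk1 was lost without controls 1 and 4, with the mean of its probes and on the authors' deposited values. Pdk1 differed from bur by -0.80 (adjusted p = 0.0138). Interferon-stimulated genes were lower in 4 of 19 and higher in none against control, or in 2 of 19 without controls 1 and 4, and 10 of 19 were lower than in bur. Rsad2, the antiviral enzyme viperin, read 12.77, 12.20, 12.84 and 13.37 on laser arrays 1 to 4 and 14.45, 14.33, 14.54 and 14.26 on control arrays 1 to 4. Both probes fell, the brightest by 1.60 ± 0.27 on the log2 scale (3.03-fold, adjusted p = 0.00114), and the groups did not overlap. Oxidative phosphorylation subunits were higher in 3 and lower in 6 of 23, and cytosolic ribosomal proteins higher in 6 and lower in 4 of 24. Without controls 1 and 4 the lower counts were 3 and 1, and 5 ribosomal proteins were higher. Rpl13, a protein of the large ribosomal subunit, was called higher by 3 of 3 probes, the brightest by 0.77 ± 0.16 (adjusted p = 0.00337), but some of these share sequence. Rpl27a, by contrast, was lower by its brightest probe, higher by 4.43 by another, and turned to higher when all its probes were averaged.

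Among the widest gaps between opposite probes were those of Hist2h2be, a core histone, and Elmo1, a regulator of phagocytosis and migration. The brightest Hist2h2be probe fell by 0.71 ± 0.14 on the log2 scale (adjusted p = 0.00346), while its other probe read 9.22, 9.12, 9.67 and 9.90 on laser arrays 1 to 4 against 4.87, 5.26, 4.65 and 4.2 on the controls. The brightest Elmo1 probe fell by 0.75 ± 0.19 on the log2 scale (adjusted p = 0.0107), and the other was above background on all laser arrays and no control array. Against control, the same dimmer probes differed on the bur arrays, which share the control slide, by -0.29 for Hist2h2be and -0.49 for Elmo1. Neither passed the test in bur. No direction is given for the genes Hist2h2be, Elmo1, Rpl27a, Mobp and Mki67.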

How the data were processed

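Per the labels' protocols, 200 ng of total RNA from each of 12 rat calvaria samples was labelled with Cy3 and read on a one-colour Agilent array. The deposited scanner files hold spot intensities made with Agilent Feature Extraction 11.0.1.1, per the file headers (gProcessedSignal, already background-corrected by that software). The authors also deposited log2 values that their file calls quantile normalized, and a laser against control table of log2 differences and p-values with the column names of a limma result. How their probes were chosen is not given in the sources used here. The deposited flags (above background, outlier) were used as given.

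From the scanner files, log2(gProcessedSignal) was quantile normalized over the 12 arrays after leaving out control spots and outlier flags. Of 45598 rat probes, 27194 were kept. Keeping a probe took a reading well above background from 4 or more arrays, counted across all 3 groups together. Gene names came from RefSeq accessions for 24452 probes and from the file for 11680, and 9466 had none. A gene is represented by its brightest kept probe, which gave 16396 genes. limma 3.58.1 in R 4.3.3 was fitted to all 12 arrays with 3 groups, with Benjamini-Hochberg adjustment over all genes at 0.05, so every adjusted p in the text is limma's. The script was tested on simulated data. None of the spots reached saturation, and precision is limited by how few arrays there are.

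The genes and lists described were chosen with earlier results of these data known. By rule, the named genes are the 12 highest and 12 lowest among genes whose probes agree and whose groups do not overlap, up to 5 members of each of the 49 lists with the smallest p, the 6 genes with the widest gap between opposite probes, and Sost. The text prints a subset of these, and Serpinh1, Mmp2, Hemgn and Mki67 were picked after their values were seen. Alternatives covered scaling, background correction, the filter on dim probes, the arrays in the fit, the replicate number, array weights, the probes of a gene, the authors' values and left-out arrays. Results of a few genes are not reported here.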

Additional observations from a re-analysis of the deposited data

Results flagged for a closer look

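In 8 of 188 checks (each printed gene in the laser and in the control group), 1 array stood far from the other 3 by Dixon's criterion, and chance gives about 1 in 20. Of the laser arrays, Reln on laser 3 read 5.63 against 5.88 to 5.93 on the others. Igfbp2 on laser 3 read 3.21 against 3.91 to 4.05. Bmpr1a on laser 4 read 6.45 against 6.99 to 7.06, and Hspb8 on laser 4 read 3.79 against 4.44 to 4.54.

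Of the control arrays, Mepe on control 3 read 12.99 against 11.94 to 12.02. Il6 on control 1 read 0.77 against 0.56 to 0.59, all below background. Csf3 on control 4 read 6.78 against 7.91 to 8.05, and Acta1 on control 4 read 3.80 against 0.58 to 0.67.

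Outside the rat probes, the highest signal of any ERCC control probe reached 8.9245 on the log2 scale on a laser array, where the control arrays reached 4.78 to 5.75. The 4 laser arrays reached 5.96 to 8.92.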

How the results depend on the processing

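The slide could not be a term in any fit, since it coincides with laser. The count of genes whose probes agree, 430, was 255 on the authors' deposited values, 1118 when probes only had to share a sign with the brightest called, 269 without laser 1, 277 without laser 2 and 416 without control 2, the range being 269 to 416 when 1 array was left out. Genes called higher, 2988, were 1821 without controls 1 and 4. With 1 array left out, 4205 to 5481 genes were called in either direction, and Sost ranged from -0.82 without control 4 to -0.14 without laser 4; it was called under no setting. The share of calls that were higher was 52.98% in the reported fit and 43.6% with probes above background on all 12 arrays. The difference turned direction with the mean of all probes for Mobp (-1.24), Elmo1 (1.88), Rpl27a (1.44) and Hist2h2be (2.01), and on the authors' deposited values for Elmo1 (0.65) and Rpl27a (3.51). The cause of these changes was not tested. Of the settings tried for single genes, 1568 values kept direction and side of the threshold, 98 lost the call and 6 turned direction. The mean of probes gives no count of agreeing probes.

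With the replicate number as a block, 5941 genes were called, 461 had agreeing probes and Sost differed by -0.44 (limma, adjusted p = 0.451). Same-numbered laser and control arrays deviated with correlations of 0.21, -0.02, -0.11 and 0.25, and 2 of 4 laser arrays correlated best with the control of their own number. These values do not settle whether the numbers pair the samples. In the authors' values, 3840 later entries correlated with the scanner files at a median of 0.24, against 0.96 for the others, and were not used.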
